A study of Rattus norvegicus with 6 samples.

Results

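None of 10 transporter genes that carry glucose and amino acids across the proximal tubule was called changed in rat renal cortex after dosing with 4-hydroxy-m-phenylenediammonium dichloride. The largest difference was in Slc6a19, the apical carrier of neutral amino acids, at 1.27-fold higher in treated animals, and the most clearly separated was Slc2a1, a glucose carrier, at 1.18-fold lower. Neither passed the test across all genes (limma adjusted p = 0.144 and 0.0865). The 10 genes are the sodium-glucose cotransporters Slc5a1 and Slc5a2, the glucose carriers Slc2a1 and Slc2a2, the amino acid carriers Slc6a19, Slc7a7, Slc7a8 and Slc7a9, and the heavy chains Slc3a1 and Slc3a2. They were chosen by name, and their probes by RefSeq accession, which gave 17 of the 61537 non-control probes. All 10 genes were among the 12130 genes tested.

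The study compared male Sprague-Dawley rats, bought at 5 weeks of age and dosed for 4 weeks. The 3 controls were given corn oil and the other 3 rats the compound, an aromatic diamine salt, at 100 mg/kg/day. The sources used here do not name its vehicle. Each animal gave 1 renal cortex sample and 1 single-colour Cy3 array. A level is the log2 signal less that of the 75th percentile on the same array, so a level of 0 equals that percentile, and a log2 fold change is treated minus control. A gene with several probes is represented by the brightest one. A gene is called at an adjusted p under 0.05. Fits used limma across all genes with Benjamini-Hochberg adjustment.

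The proximal tubule takes back nearly all filtered glucose and amino acids. Apical cotransporters use the sodium gradient kept by the basolateral sodium pump to bring these solutes into the cell, and facilitative carriers or exchangers let them out on the blood side. In the convoluted part SGLT2 (Slc5a2) works with GLUT2 (Slc2a2), and in the straight part SGLT1 (Slc5a1) works with GLUT1 (Slc2a1). The light chains Slc7a7, Slc7a8 and Slc7a9 reach the membrane only bound to a heavy chain. Slc3a1 pairs with Slc7a9 at the brush border, where loss of either causes cystinuria. Slc3a2 pairs with Slc7a7 and Slc7a8 on the basolateral side.

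The share of non-control probes well above background was 66.0%, 67.7% and 63.1% on the control arrays. On the treated arrays it was higher, at 69.6%, 69.0% and 68.9%. The 75th percentile of the signal ran from 837 to 1001. All 17 transporter probes were well above background on all 6 arrays. The scanner software put the error of a spot at 10% to 10.5% of its signal for the 10 representing probes. All control arrays lay on 1 slide and in 1 scan and all treated arrays on another, so a slide or scan effect and a treatment effect cannot be told apart. The number of arrays limits the precision. In whole cortex, fewer cells of a type and less RNA per cell cannot be told apart.

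Over the 10 genes, limma called 0 higher and 0 lower, where 4.38% of all genes tested were called (3.05% higher and 1.33% lower). Unadjusted, limma gave a p under 0.05 for 2 of the 10 genes, against 25% of all genes (11.8% higher and 13.2% lower). These 2 genes, Slc2a1 (lower) and Slc6a19 (higher), also showed no overlap between the groups, against 32.8% of all genes tested (14.1% higher and 18.7% lower), so neither share exceeded the background. Treated means were lower for 7 genes and higher for 3, where 56.5% of all genes had a lower mean. The median log2 fold change of the 10 was -0.091, beside -0.030 for all genes tested and -0.095 for the 1213 genes with the brightest probes, to which 5 of the 10 belong. Without control replicate 2 the median of the 10 was -0.18, and without control replicate 1 or 3 it was -0.055. The 95% interval of the fold change lay within a 2-fold change in either direction for each of the 10 genes.

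**Figure D1:**
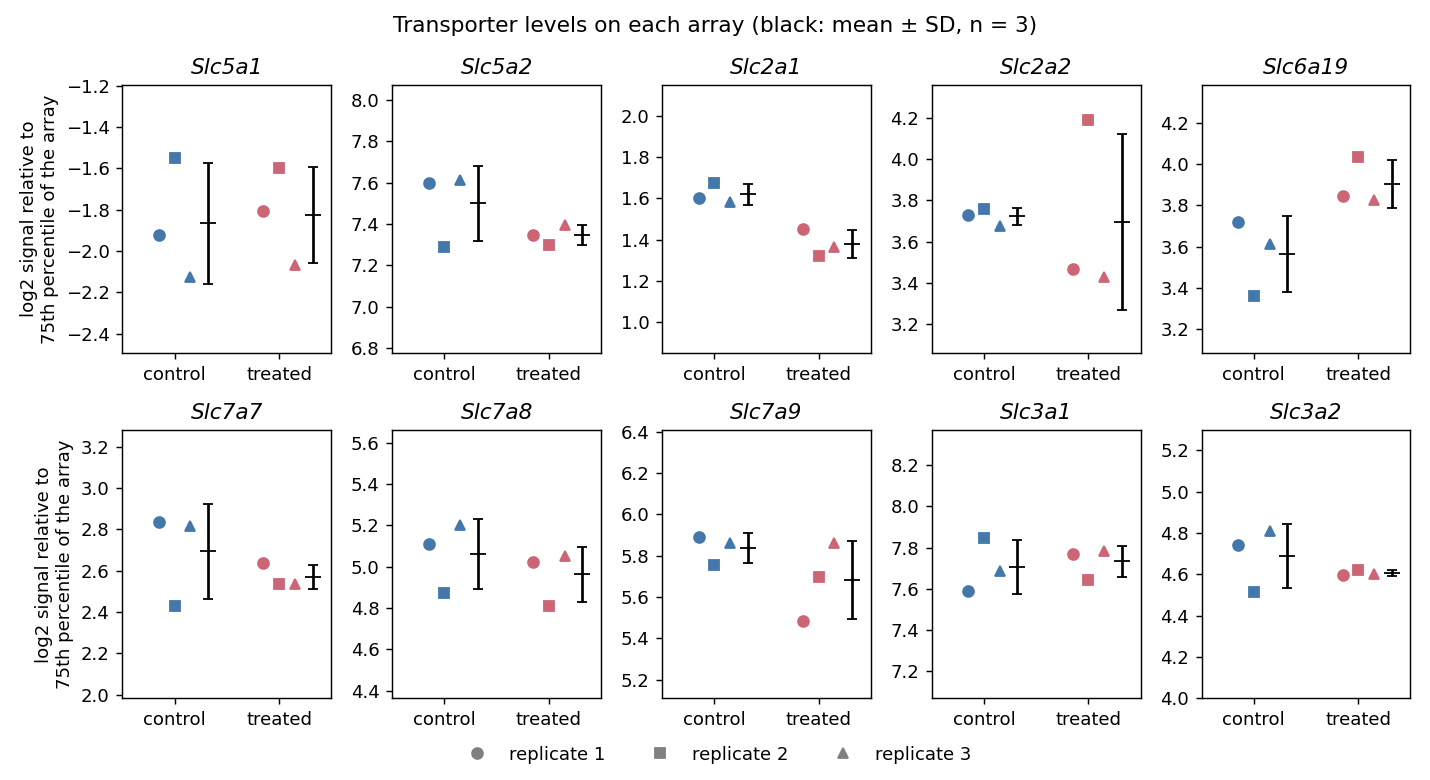
Level of each transporter gene on each array, as log2 signal relative to that array's 75th percentile (vertical axis, a window of equal height in every panel), for control (blue) and treated (red) animals. Marker shape gives the replicate number, and black bars give the mean and SD of 3 animals. Only Slc2a1 and Slc6a19 show no overlap between the groups, and Slc2a2 has 1 treated animal far above the other two.

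Among the facilitative glucose carriers, Slc2a1 encodes GLUT1, the basolateral glucose exit of the straight tubule and a general carrier in many other cells. Its levels were 1.60, 1.68 and 1.58 in controls and 1.45, 1.32 and 1.36 in treated animals. All treated values lay below all control values. Before scaling the groups overlapped, with signals of 2750, 3119 and 2505 against 2740, 2435 and 2395. The mean was 1.62 ± 0.050 in controls and 1.38 ± 0.067 in treated animals (SD, n = 3 each). This is a log2 fold change of -0.24 (SE 0.062, limma adjusted p = 0.0865), with a 95% interval from -0.39 to -0.087. The difference exceeded the SD of either group but did not pass. With a normexp background, another way of removing background light, the log2 fold change was -0.31 and passed (limma adjusted p = 0.0356), where 8.01% of all genes were called and 4.23% were called lower. Arrays centred on spike-in transcripts gave -0.11 (limma adjusted p = 0.547) and called 6.13% of all genes, 5.94% higher and 0.198% lower. The adjusted p over all alternatives ran from 0.0356 to 0.547 in limma.

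Slc2a2 encodes GLUT2, the basolateral glucose exit of the convoluted tubule. Its levels were 3.73, 3.76 and 3.68 in controls and 3.47, 4.19 and 3.43 in treated animals. Treated replicate 2 lay above every control and the other two treated animals below every control. The SD was 0.042 in controls and 0.43 in treated animals, and 6.02% of all genes tested had a larger SD among treated animals. The other two probes of the gene ranked the treated animals with replicate 2 highest as well, at levels of 2.76 against 2.09 and 1.94, and of -1.26 against -1.86 and -1.81. The mean log2 fold change was -0.026 (SE 0.21, limma adjusted p = 0.955), with an interval from -0.55 to 0.50. Without treated replicate 2 it was -0.27 (limma adjusted p = 0.138). Without treated replicate 1 or 3 it turned positive, at 0.088 and 0.11.

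On the apical side, Slc5a2 encodes SGLT2, which takes up most filtered glucose. Its levels were 7.60, 7.29 and 7.61 in controls and 7.35, 7.30 and 7.40 in treated animals. The groups overlapped because control replicate 2 lay below all treated animals. The log2 fold change was -0.15 (SE 0.10, limma adjusted p = 0.404), with an interval from -0.41 to 0.10, and the other two probes gave -0.16 and -0.066. Without control replicate 2 the log2 fold change was -0.26 (limma adjusted p = 0.138).

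Slc5a1 encodes SGLT1, which takes up the remaining glucose in the straight tubule. Its levels were -1.92, -1.55 and -2.12 in controls and -1.81, -1.60 and -2.07 in treated animals. All treated values lay within the range of the controls. The log2 fold change was 0.041 (SE 0.19, limma adjusted p = 0.918), with an interval from -0.42 to 0.50, and its other probe gave 0.012. It was -0.089 without control replicate 3, -0.072 without treated replicate 2 and 0.20 without control replicate 2.

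Slc6a19 encodes B0AT1, the apical sodium-coupled carrier whose loss causes Hartnup disorder. Its levels were 3.72, 3.36 and 3.61 in controls and 3.85, 4.04 and 3.83 in treated animals. Every treated value lay above every control value, before scaling too (11931, 10031 and 10232 against 14416, 15971 and 13197). The mean was 3.56 ± 0.18 in controls and 3.90 ± 0.12 in treated animals (SD, n = 3 each). The log2 fold change was 0.34 (SE 0.11, limma adjusted p = 0.144), with a 95% interval from 0.057 to 0.62, or 1.04-fold to 1.54-fold. The gene has 1 probe on the array, so no second probe could be set beside it. A normexp background gave 0.48 and passed (limma adjusted p = 0.0489), where 3.78% of all genes were called higher, and over all alternatives the limma adjusted p ran from 0.0489 to 0.304. The smallest log2 fold change without 1 array was 0.24, without control replicate 2.

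For the other 8 genes no control and treated groups were separated, so promoter sequence is shown for Slc2a1 and Slc6a19 alone, the pair whose groups do not overlap and whose differences run in opposite directions. The sequences are from RefSeq (GRCr8, plus strand for both, 250 bases before to 50 after the annotated start, printed 5′ to 3′) at chr5:138002272-138002571 for Slc2a1 and chr1:31414494-31414793 for Slc6a19. Capitals mark exact matches, on either strand, to 5 short motifs: GGGCGG (GC box), ACGTG (core of a hypoxia response element), TGACNNNGC (core of an antioxidant response element), CCAAT and TATAAA.
Slc2a1: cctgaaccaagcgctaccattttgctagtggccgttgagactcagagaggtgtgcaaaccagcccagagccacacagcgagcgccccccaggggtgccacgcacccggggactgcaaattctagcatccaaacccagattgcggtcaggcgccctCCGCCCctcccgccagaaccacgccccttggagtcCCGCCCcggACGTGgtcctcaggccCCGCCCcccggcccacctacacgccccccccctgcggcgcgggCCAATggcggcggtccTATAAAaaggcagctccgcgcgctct
Slc6a19: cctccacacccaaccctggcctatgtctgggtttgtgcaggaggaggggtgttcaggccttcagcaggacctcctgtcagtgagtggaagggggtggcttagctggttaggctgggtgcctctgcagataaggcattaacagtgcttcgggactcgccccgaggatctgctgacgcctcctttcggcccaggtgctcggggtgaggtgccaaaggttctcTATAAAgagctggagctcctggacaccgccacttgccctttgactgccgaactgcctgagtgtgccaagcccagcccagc
The Slc2a1 window held 3 GC boxes, 1 ACGTG, 1 CCAAT and 1 TATAAA, which did not overlap each other. Its CCAAT and TATAAA lay after the annotated start, at positions 9 and 25. The Slc6a19 window held 1 match, a TATAAA at position -30, where -1 is the base before the annotated start. ACGTG was found in 4 of the 10 genes and in 19.3% of all 33469 promoter windows of this length, GGGCGG in 3 and 33.1%, CCAAT in 2 and 37.5%, TATAAA in 4 and 14.2%, and TGACNNNGC in 3 and 12.1%. Slc3a2 has 2 such windows and was counted if either held the motif. A match is a run of letters and no measured binding site.

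The light chains of the heteromeric exchangers were not separated between the groups. Slc7a9, the apical light chain that exchanges cystine and basic amino acids, had levels of 5.89, 5.75 and 5.86 in controls and 5.48, 5.70 and 5.86 in treated animals. Treated replicate 1 was the lowest of the 6, and treated replicate 3 lay within the controls. Treated animals differed by -0.16 in log2 fold change (SE 0.11, limma adjusted p = 0.420), with an interval from -0.42 to 0.11. The value was -0.057 without treated replicate 1 and -0.24 without treated replicate 3.

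Slc7a7, the basolateral light chain that releases basic amino acids and is lost in lysinuric protein intolerance, had levels of 2.83, 2.43 and 2.82 in controls and 2.64, 2.54 and 2.54 in treated animals. Control replicate 2 was the lowest of the 6 and the other two controls the highest. The log2 fold change was -0.12 (SE 0.12, limma adjusted p = 0.572), and -0.26 without control replicate 2 (limma adjusted p = 0.144).

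Slc7a8, the basolateral light chain that exchanges neutral amino acids, had levels of 5.11, 4.87 and 5.20 in controls and 5.02, 4.81 and 5.05 in treated animals. The ranges overlapped over most of their length. Its probes differed in sign, with log2 fold changes of -0.099 (SE 0.11, limma adjusted p = 0.625 in the gene fit) and 0.13 (SE 0.11, limma adjusted p = 0.509 in the fit over all probes). At the first probe it ran from -0.19 without control replicate 2 to -0.024 without treated replicate 2.

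Of the heavy chains, Slc3a1 (rBAT) had levels of 7.59, 7.84 and 7.68 in controls and 7.77, 7.65 and 7.78 in treated animals. All treated values lay within the range of the controls. The log2 fold change was 0.027 (SE 0.086, limma adjusted p = 0.876), with an interval from -0.19 to 0.24. Its other probe gave -0.057, and without control replicate 1 the value was -0.032.

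Slc3a2, the CD98 heavy chain, is made in most cells and not in the tubule alone. Its levels were 4.74, 4.52 and 4.81 in controls and 4.60, 4.62 and 4.60 in treated animals. All treated values lay within the range of the controls. The treated SD was 0.013, and 98.4% of all genes tested had a larger one. Its log2 fold change was -0.083 (SE 0.088, limma adjusted p = 0.595), with an interval from -0.30 to 0.13. It was -0.17 without control replicate 2 and -0.023 without control replicate 3.

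**Figure D2:**
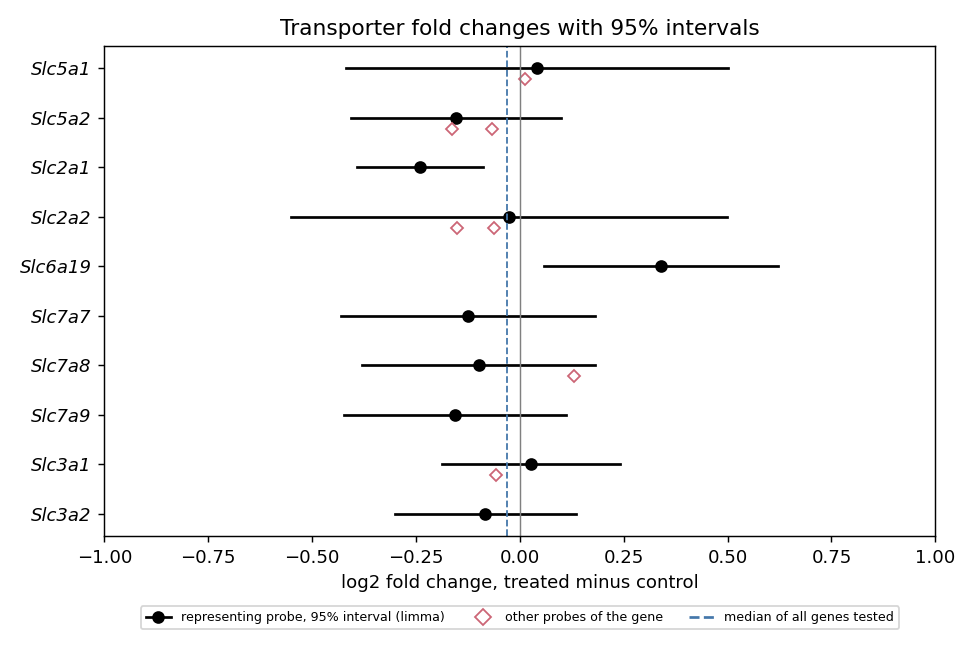
Log2 fold change (treated minus control) of each transporter gene at its representing probe with the 95% interval of the limma fit (black), at its other probes (open red diamonds), and the median of all genes tested (dashed line, -0.030). The intervals of Slc2a1 and Slc6a19 do not cross 0 before adjustment for the number of genes, and the probes of Slc7a8 and of Slc3a1 fall on both sides of 0.

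Fitted over all 40988 probes above background, 0 of the 17 transporter probes were called (lowest limma adjusted p = 0.0878, 2 probes at no overlap), where 6.72% of all probes were called and 33.3% did not overlap. Of the 5 genes with several probes, Slc7a8 and Slc3a1 had probes of opposite sign. The other probes of Slc5a1, Slc5a2 and Slc2a2 ran the same way as the representing one.

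Pairs that work together or stand in for each other were compared as ratios within an array, for 8 pairs, with an exact two-sided permutation test whose smallest p with 3 against 3 animals is 0.1. Slc6a19 was compared with Cltrn (collectrin), the partner that brings it to the renal brush border. Relative to the control mean, its log2 ratio to Cltrn was 0.063, 0.048 and -0.11 in controls and 0.41, 0.38 and 0.29 in treated animals. It was higher in 3 of 3 treated animals than in any control, by 0.36 (exact permutation p = 0.1, 0.8 after Benjamini-Hochberg adjustment over the 8 pairs). Cltrn itself had a log2 fold change of -0.019 (SE 0.13, limma adjusted p = 0.945).

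The ratios of the heteromeric partners overlapped between groups. Treated minus control, the log2 ratio differed by -0.18 for Slc7a9 to Slc3a1, -0.041 for Slc7a7 to Slc3a2 and -0.016 for Slc7a8 to Slc3a2 (exact permutation p = 0.4, 0.7 and 1). Slc3a2 to Slc3a1 differed by -0.11 (exact permutation p = 0.5), from -0.27 without control replicate 2 to -0.025 without control replicate 1. Slc7a9 to Slc3a1 ran from -0.29 without control replicate 2 to -0.066 without treated replicate 1. For Slc7a8 to Slc3a2, which share the basolateral membrane, the control SD of the ratio was 0.017, while Slc7a8 alone had a control SD of 0.17. In treated animals the SD of the ratio was 0.14 and that of Slc7a8 alone 0.13.

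The counterparts for glucose did not separate either. The log2 ratio of Slc5a1 to Slc5a2 was higher by 0.19 in treated animals, against a control SD of 0.47 (exact permutation p = 0.7), and ran from 0.0073 without control replicate 3 to 0.46 without control replicate 2. That of Slc2a1 to Slc2a2 was lower by 0.21 with a treated SD of 0.48 (exact permutation p = 1), and turned to 0.062 without treated replicate 2. Slc5a2 to Pdzk1ip1, which encodes the small membrane protein that activates SGLT2, differed by 0.057 (exact permutation p = 0.8).

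Among the controls, replicate 2 stood outermost for all 10 genes, the lowest for 6 and the highest for 4. Over all genes tested it was outermost for 69.0%. It had the lowest control level of Slc5a2, Slc6a19, Slc7a7, Slc7a8, Slc7a9 and Slc3a2, and the highest of Slc5a1, Slc3a1, Slc2a1 and Slc2a2. The sum of the straight tubule markers was highest in the same animal, though Cyp7b1 among them was highest in control replicate 3. The summed level (on the linear scale, in units of the 75th percentile) was 60.6, 132 and 72.4 in controls and 67.3, 43.5 and 55.4 in treated animals. Slc7a13, at a level of 5.89 in control replicate 2, was the brightest straight tubule marker there and weighs most in that animal's sum. Thick ascending limb markers also summed highest in control replicate 2, at 435 against 311 and 328 in the other controls. Umod, at a level of 8.66 there, was the brightest of them and weighs most in this sum. Among controls, Umod, Slc12a1 and Cldn16 were highest in that animal, but Kcnj1 was lowest (0.58 against 0.61 and 0.69). Slc7a13, another light chain partner of Slc3a1 that is made in the straight tubule, had levels of 2.51, 5.89 and 4.23 in controls and 4.17, 1.38 and 2.57 in treated animals. The part of such markers in the transporter values was not tested.

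**Figure D3:**
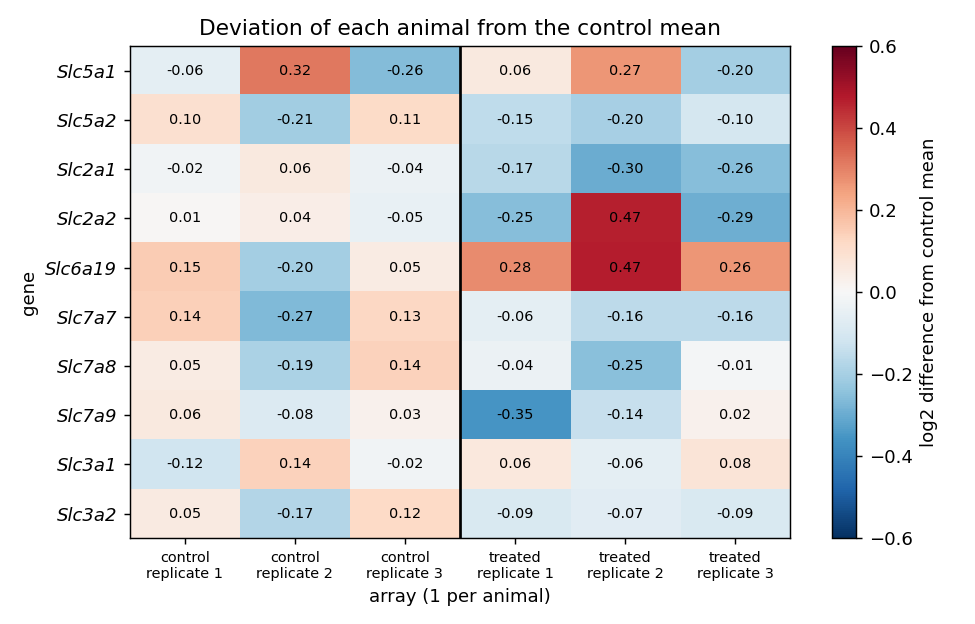
Difference of each animal from the control mean, in log2 units, for the 10 transporter genes (rows) and the 6 arrays (columns, controls left of the line). Control replicate 2 is 0.32 above the mean for Slc5a1 and 0.27 below it for Slc7a7, and treated replicate 2 is 0.47 above it for both Slc2a2 and Slc6a19.

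All 10 convoluted tubule markers were measured above background, among them Slc34a1, Lrp2 and Cubn, with a summed level of 1742 to 1901 in controls and 1698 to 1749 in treated animals. With limma 0 of these 10 and 0 of 6 straight tubule markers were called (1 and 2 at an unadjusted p under 0.05), with median log2 fold changes of -0.064 and -0.43. Lower treated means were found for 8 of the 10 convoluted and 6 of the 6 straight markers, beside 56.5% of all genes. Of the straight markers 2, Atp11a and Slc5a10, did not overlap and were lower, beside 18.7% of all genes. Slc7a13, Slc6a18 and Slc5a10 also stand in the transporter lists below. Of 5 red blood cell markers tested, 5 did not overlap and were higher, beside 14.1% of all genes. Limma called 1 of them higher, Gata1, which was not well above background in controls. The Gata1 probe entered the test through the treated group alone, so its call and its lack of overlap add no support. The 5 markers had a summed level of 435 to 569 in controls and 666 to 1023 in treated animals. Their part in the values of the 10 genes was not tested. The sums of the other marker lists overlapped between groups, except injured tubule markers (10.2 to 11.3 against 11.8 to 15.7). Of the leukocyte markers, Cd3e was well above background on 1 control array and Cd79b on 2, and both on 3 treated arrays. Of the 5 injured tubule markers tested limma called 0 (1 at an unadjusted p under 0.05), 3 had a lower treated mean, the median log2 fold change was -0.16, and 1, Spp1, did not overlap (0.70, higher). Among the other lists limma called 1 marker, Acta2 of smooth muscle, higher (log2 fold change 0.50, limma adjusted p = 0.0390).

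Other carriers of the same solutes were read from a list. Of 15 other sugar transporters tested, limma called 1 higher and 0 lower, with a median log2 fold change of -0.0039. The called gene was Slc2a6, which encodes GLUT6, at -1.54, -1.84 and -1.93 in controls and -1.03, -1.04 and -1.13 in treated animals. It rose 1.63-fold (log2 fold change 0.70, SE 0.11, limma adjusted p = 0.0359), while its other probe gave 0.47 (SE 0.25, limma adjusted p = 0.299). The call was lost on leaving out any 1 array (limma adjusted p from 0.0501 to 0.113), with no filter on dim probes (0.0731) and with the mean of its probes (0.0860).

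Of 30 other amino acid and peptide transporters tested, limma called 0, with 15 lower and 15 higher means, a median of -0.0099 and, at an unadjusted p under 0.05, 4 genes. The smallest p belonged to Slc43a2, which encodes a basolateral neutral amino acid carrier (log2 fold change 0.37, SE 0.090, limma adjusted p = 0.0751), and Slc36a4 (-0.27, SE 0.069, limma adjusted p = 0.0867). The probes of Slc43a2 disagreed, at 0.37, -0.022 and -0.58, and the last was called lower in the fit over all probes (limma adjusted p = 0.0375). Those of Slc36a4 differed in sign too, at -0.27, -0.097 and 0.10. Slc7a11, the cystine light chain of Slc3a2, named here after its values were seen, cleared background on all 3 treated arrays and on 0 control arrays. Its probe therefore entered the test through the treated group alone. Set against the lowest signal called well above background on each control array, Slc7a11 was 1.40-fold higher in treated animals. That figure carries no sampling error, so it is no lower limit on the difference. The fitted log2 fold change was 0.98, with an interval from 0.041 to 1.92, and did not pass (limma adjusted p = 0.186).

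Of 10 partners and regulators tested, limma called 0 higher and 1 lower, with a median of -0.035. Anpep, a brush border aminopeptidase that yields amino acids for uptake, had levels of 4.26, 4.44 and 4.21 in controls and 3.60, 3.78 and 3.60 in treated animals. It fell 1.57-fold (log2 fold change -0.65, limma adjusted p = 0.0304). That call was lost on leaving out any 1 array (limma adjusted p from 0.0685 to 0.0971), with no filter on dim probes (0.0651) and with spike-in scaling (0.0718). Of 3 sodium pump genes limma called 0, with a median of 0.057 and 1 gene at an unadjusted p under 0.05. Fxyd2, a regulatory subunit, had a log2 fold change of 0.083 (SE 0.068, limma adjusted p = 0.490).

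**Figure D4:**
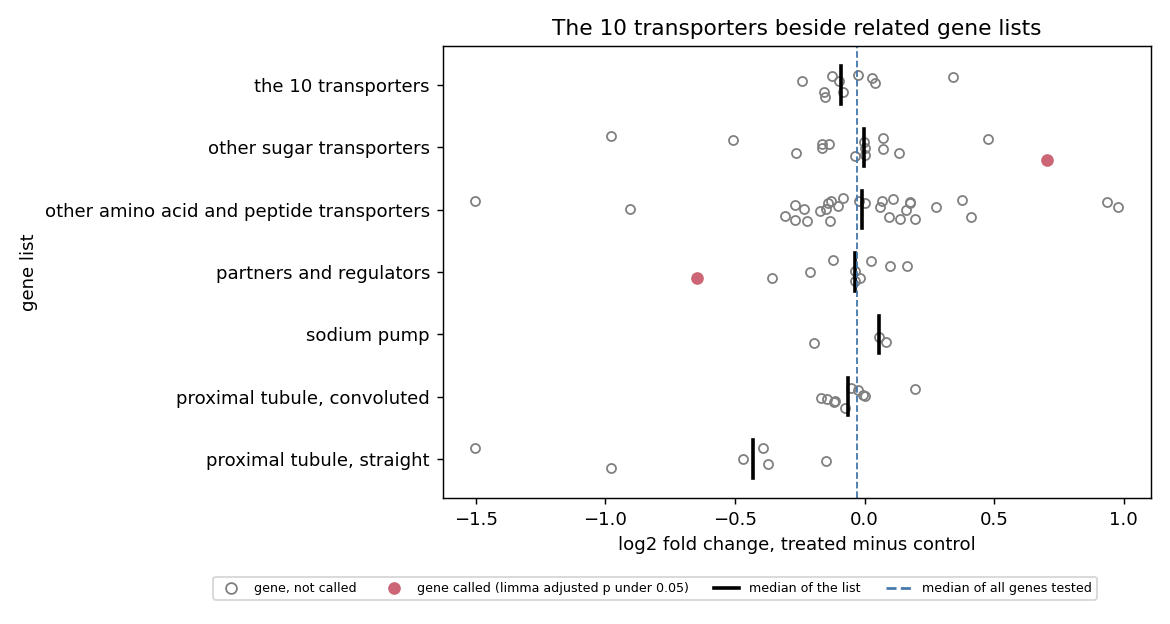
Log2 fold change (treated minus control) of every tested gene in the 10 transporters, 4 related gene lists and 2 proximal tubule marker lists. Filled red points are genes called by limma, black bars are list medians and the dashed line is the median of all genes tested. The called genes are Slc2a6 at 0.70 and Anpep at -0.65, and the straight tubule markers have a median of -0.43.

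The genes whose pattern over the 6 arrays was most like that of Slc6a19 were Arpc1b, Slc43a2 and Duoxa1, with root-mean-square differences of 0.049, 0.054 and 0.058 log2 units after centring on the control mean. Those most like Slc2a1 were Lman1, Tmed9 and Rpl34, at 0.022, 0.030 and 0.031. None of these 6 genes was called (limma adjusted p from 0.0690 to 0.114). Duoxa1 was dim, at levels of -5.62, -5.88 and -5.62 in controls and -5.33, -5.18 and -5.42 in treated animals.

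The direction of the smaller differences moved with the scaling. Spike-in scaling shifted the median of all genes from -0.030 to 0.10, and the 10 genes then stood at 7 higher and 3 lower, in place of 3 and 7. Slc2a1, Slc5a2 and Slc7a9 kept a lower mean, and Slc6a19 a higher mean, under each scaling and background setting tried. Slc5a1 ran from 0.00062 with normexp to 0.17 with spike-in scaling. The median of the 10 minus that of all genes was -0.061 with 75th percentile, median and spike-in scaling. These scalings each subtract a constant from an array, so this difference could not move between them. It was -0.0087 with quantile scaling and 0.018 with a normexp background.

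**Figure D5:**
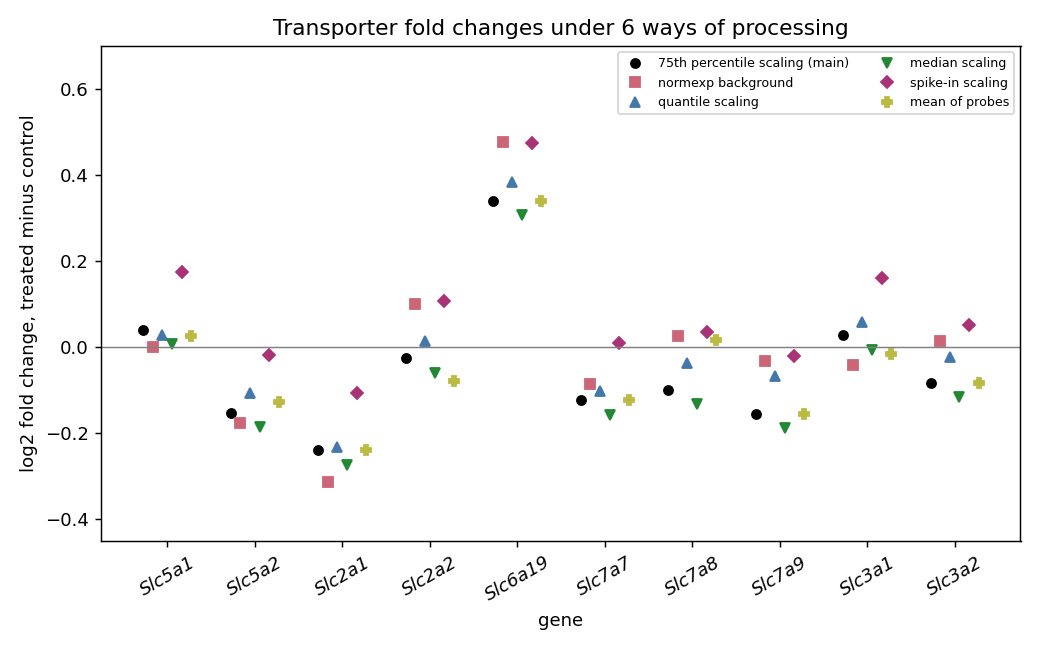
Log2 fold change (treated minus control) of each transporter gene under 6 ways of processing the signals. Slc6a19 stays above 0 (0.31 to 0.48) and Slc2a1 below 0 (-0.31 to -0.11), while Slc2a2, Slc7a7, Slc7a8, Slc3a1 and Slc3a2 lie on both sides of 0.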

How the data were processed

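The scanner software was Agilent Feature Extraction, version 10.7.1.1 by the file headers and 10.7 by the submitters' processing notes, with an array design tied to build rn4. The deposited intensity of a spot is background-subtracted and detrended, per the file headers, and was not scaled between arrays. The value table deposited by the authors is a ratio on a linear scale, found here to match each array's signal over its 75th percentile (median quotient 0.998), with column medians from 0.105 to 0.110 and no centring by gene. Other columns used are flags set by the software, per the file headers.

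Here, log2 of the processed signal minus each array's 75th percentile over non-control probes was used. Outlier spots, 1 to 3 per array, were left out, and no spot was saturated. Accessions matched to a RefSeq table (GRCr8) named 28206 probes of 15645 genes, and 33331 probes stayed unnamed. A probe was kept if all 3 arrays of either group had it well above background. Genes were compared with limma 3.58.1 in R 4.3.3 (prior degrees of freedom 1.77), tested on simulated data. Groups were read from the labels' treatment entry, and the design text calls the animals biological replicates. All 10 transporters are named. Of each related list the called genes, or else the 2 with the smallest p, are named, with the genes of the 8 pairs and the 3 genes nearest in pattern to the transporter with the largest difference and to that with the smallest p. Filter and representing probe were held fixed where scaling or arrays were changed. The genes and lists were chosen with earlier results of these data known. The planned normexp correction used median spot signals. Some genes that this rule would name are not reported here.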

Additional observations from a re-analysis of the deposited data

How the results depend on the processing

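The 10 transporters gave 110 values under 11 alternatives that kept all arrays. Of these, 12 turned sign and 2 passed the threshold, Slc2a1 and Slc6a19 with a normexp background (1 called lower, 1 called higher). The filter changes, replicate block, intensity trend and fit over all probes reused the main values at the same probes. No sign could turn under those settings, only the adjusted p could move. With normexp Slc2a2 was 0.10, Slc7a8 0.025, Slc3a1 -0.043 and Slc3a2 0.014. With spike-in scaling Slc2a2 was 0.11, Slc7a7 0.010, Slc7a8 0.035 and Slc3a2 0.051. Quantile scaling gave Slc2a2 0.015, median scaling Slc3a1 -0.0066, and the mean of probes Slc7a8 0.015 and Slc3a1 -0.015. Leaving out 1 array called 0 transporters, with ranges of -0.089 to 0.20 for Slc5a1, -0.27 to 0.11 for Slc2a2 and -0.032 to 0.096 for Slc3a1. The cause of these changes was not tested. Among ratios, normexp gave 0.057 for Slc3a2 to Slc3a1, 0.0096 for Slc7a9 to Slc3a1, 0.011 for Slc7a8 to Slc3a2 and -0.047 for Slc5a2 to Pdzk1ip1, and the mean of probes 0.099 for Slc7a8 to Slc3a2. Without 1 array, ranges were -0.36 to 0.062 for Slc2a1 to Slc2a2, -0.087 to 0.0034 for Slc7a7 to Slc3a2, -0.063 to 0.067 for Slc7a8 to Slc3a2 and -0.057 to 0.19 for Slc5a2 to Pdzk1ip1.

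Over all genes, 370 were called higher and 161 lower. With normexp there were 459 and 513, with spike-in scaling 720 and 24, with no filter 37 and 7, with the mean of probes 229 and 63, over all probes 2039 and 715, and with an intensity trend 441 and 395. Leaving out 1 array left 0 to 48 higher and 0 to 6 lower. The replicate block called 0 higher and 0 lower, and gave Slc2a1 an adjusted p of 0.210 in limma. Deviations of same-numbered animals from their group means correlated at -0.118, -0.114 and 0.0891 across genes. Only the third pair correlated best with its own number. Centring within so few animals ties these correlations together, so they cannot show whether animals were handled in pairs. Related lists moved with the scaling: spike-in scaling gave medians of 0.13 for sugar, 0.12 for amino acid transporters, 0.099 for partners and 0.19 for the sodium pump, and 0 calls among partners. For amino acid transporters normexp gave -0.058 with 1 call and no filter -0.093, and leaving out 1 array -0.044 to 0.044. Median scaling gave the sodium pump 0.023. With no filter, sugar transporters and partners had 0 calls, and 0 to 0 without 1 array. Each slide and scan held 1 group, so neither could enter the fit as a block.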

Other observations

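Slc2a2 was set beside all genes tested for its pattern over the 6 arrays, a choice made after its values were seen. The nearest were St7l, Abca7 and Rnf6, with root-mean-square differences of 0.066, 0.070 and 0.090 log2 units. St7l had levels of 1.42, 2.00 and 1.45 in treated animals and 1.64, 1.64 and 1.59 in controls, again with treated replicate 2 above and the other two below every control.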
